A study of Mus musculus with 4 samples.

Results

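Cytosolic ribosomal protein genes were followed across colon monocytes and macrophages of mice that had swallowed diesel exhaust particles. Members were the protein-coding genes whose symbol starts with Rpl or Rps and a digit, together with Rpsa, Rplp0, Rplp1 and Rplp2, without -ps symbols and Rps6k kinases. The rule found 86 members among 28692 genes, 34 with Rps symbols and 52 with Rpl symbols. It also takes in Rps19bp1, a binding partner of a small-subunit protein that is no subunit itself, and Rpl7l1, a paralog of Rpl7. It leaves out genes such as Fau and Rack1, which supply or accompany ribosomal proteins under other symbols.

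The animals were male C57/Bl6N mice, and their age was not given in the labels. The 2 DEP mice received 12 ug of diesel exhaust particles in 200 uL PBS by oral gavage on 5 days a week over about 6 months, and the 2 PBS mice received the vehicle alone. From the colon lamina propria of every animal, flow cytometry collected CD11b+ cells that also carried Ly6c2 or CD64. Each mouse filled 1 well of the 10x Genomics instrument, so that mouse and library cannot be told apart. The kit tags the 3′ end of each captured mRNA with a unique molecular identifier (UMI), so that a UMI count stands for molecules and is not scaled by gene length. Levels are given as CPM, the UMIs of a gene per 1000000 UMIs of a mouse or class.

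Ribosomal proteins surround the ribosomal RNA of the small (RPS) and large (RPL) subunits. Their mRNAs are among the most abundant in any growing cell, and many begin with a pyrimidine tract through which their translation is controlled together. Gut macrophages are replenished from Ly6c2-expressing blood monocytes, which lose Ly6c2 and acquire complement C1q genes such as C1qa as they mature in the mucosa. The members were therefore described by C1qa and Ly6c2 level, and then by mouse and exposure.

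Of 6954 barcodes in the table, 4771 held at least 1000 UMIs and were analysed. DEP 11 had 1218 of them, DEP 13 had 675, PBS 2 had 1296 and PBS 3 had 1582, with 4357153 to 10063287 UMIs per mouse. Across the libraries 36 barcode sequences occurred more than once, which involved 39 of the barcodes analysed. The macrophage marker list summed to between 34046 and 43290 CPM in the 4 mice, without C1qa itself. The T cell, B cell, neutrophil and epithelial lists each stayed under 100 CPM in every mouse. The plasma cell list, which includes the secreted genes Jchain and Igkc, ranged from 9437 in PBS 2 to 33712 in DEP 13.

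Many members have near-identical gene copies, and pairs that bear on later values are shown first. Each window below holds 60 bases of a GENCODE M21 transcript (mm10), 5′ to 3′, from the coding part of the member and the matching part of the copy, and capitals mark the bases that differ within a pair. The untranslated 3′ ends lie outside these windows. Rps27 (chr3:90212522-90213651, minus strand) and Rps27rt (chr9:114982366-114982739, minus strand) had no difference over 255 coding bases, so that reads within these bases cannot be assigned with certainty:
Rps27: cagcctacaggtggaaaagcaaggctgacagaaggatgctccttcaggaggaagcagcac
Rps27rt: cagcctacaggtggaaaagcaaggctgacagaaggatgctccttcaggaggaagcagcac

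Rplp0, the scaffold of the ribosomal stalk (chr5:115559467-115563727, plus strand), and the processed pseudogene Gm8730 (chr8:102864845-102865798, minus strand) differed at 2 bases of the window:
Rplp0: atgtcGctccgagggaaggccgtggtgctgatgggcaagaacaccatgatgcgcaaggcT
Gm8730: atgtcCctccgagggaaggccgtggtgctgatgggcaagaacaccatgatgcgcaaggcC

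Rplp1, an acidic stalk protein (chr9:61913284-61914542, minus strand), and Gm10073 (chr8:106572966-106573461, minus strand) differed at 3 bases:
Rplp1: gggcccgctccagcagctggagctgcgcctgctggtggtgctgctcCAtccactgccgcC
Gm10073: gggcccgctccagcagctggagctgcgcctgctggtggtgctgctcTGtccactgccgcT

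Rpl36a (chrX:134585654-134588062, plus strand) and Rpl36al (chr12:69182731-69184083, minus strand), expressed paralogs of 1 large-subunit protein, differ more over their coding bases than Rps27 and Rps27rt. They differed at 39 of 321 coding bases, an identity of 87.9%, although the last coding bases before the stop codon differed at only 2 of 60:
Rpl36a: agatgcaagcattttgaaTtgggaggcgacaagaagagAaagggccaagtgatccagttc
Rpl36al: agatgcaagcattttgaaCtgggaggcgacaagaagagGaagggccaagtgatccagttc

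The members took 15.98% of all UMIs in the barcodes analysed, and 43 of them were among the 100 genes with the most UMIs. Summed over the 4 mice, 81 of 86 members had more than 10000 UMIs, and each of these was detected in 81.4% to 99.8% of barcodes. The mean level was highest for Rps14 of the small subunit, at 4746 ± 321 CPM (SD, n = 4 mice), and for Rpl41 of the large subunit, at 4675 ± 624. Rps19 had 3797 ± 222 and Rpl37a 3785 ± 413. Rps14 and Rpl41 differed by less than their spread between mice, as did Rps19 and Rpl37a. The 10 highest members together held 23.8% of all member UMIs.

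At the other end of the order stood the variant genes. Rpl3l, a striated-muscle form of Rpl3, had 34 UMIs in all, Rpl39l had 31 and Rpl10l, a testis form, had 19, against mean levels of 1933, 1201 and 3183 CPM for Rpl3, Rpl39 and Rpl10. These 3 genes fell under the filter on low counts, and 83 members were tested. Rps19bp1 reached 30.8 ± 2.21 CPM and Rpl7l1 62.5 ± 7.58, far under Rpl7 at 1295 ± 58.4. Other paralogs were expressed in quantity. Rpl22l1 had a level of 576 ± 59.8 beside 771 ± 16.3 for Rpl22, Rpl36al had 589 ± 51.3 beside 1232 ± 86.4 for Rpl36a, and Rps27l, a p53-responsive paralog, had 369 ± 37.2 beside 3074 ± 738 for Rps27.

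**Figure D1:**
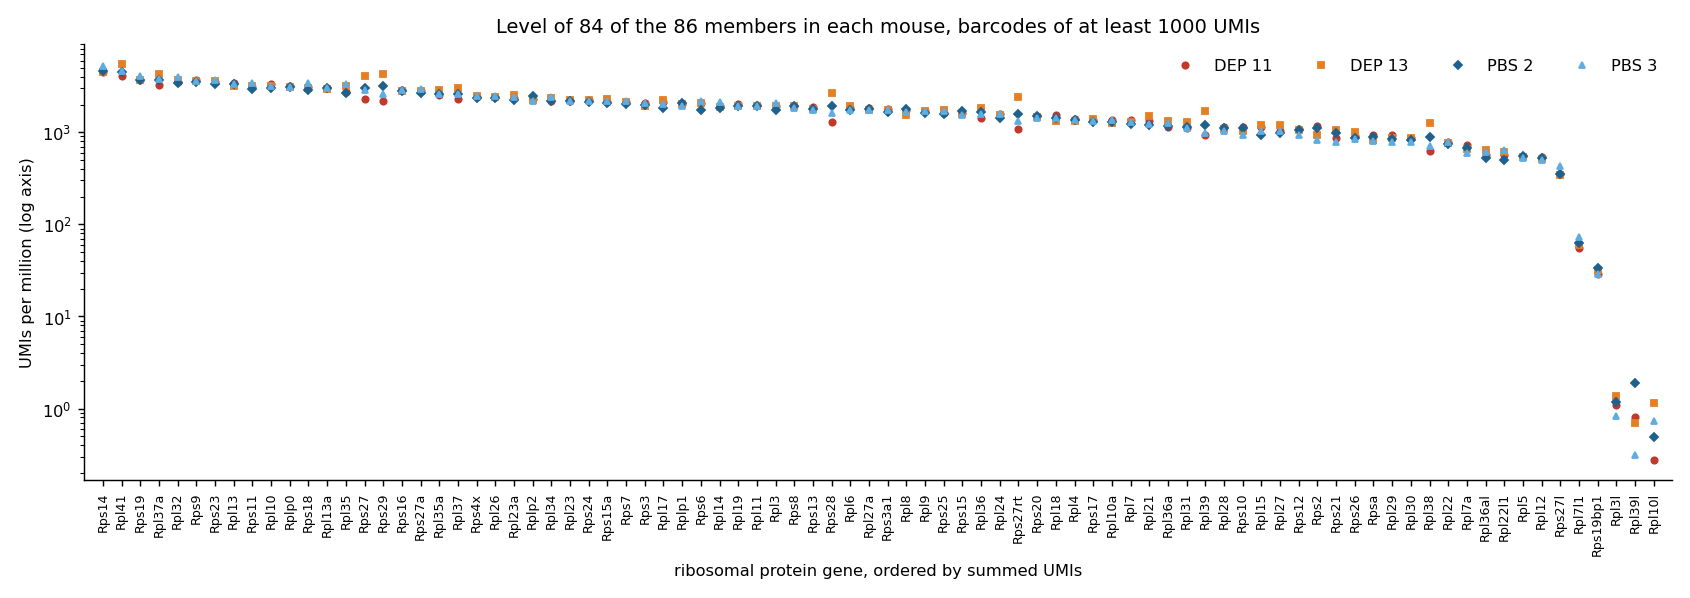
Level of 84 of the 86 members in CPM (log axis) for the 4 mice, ordered by summed UMIs. The levels decline gently from Rps14 to Rps27l, then drop to Rpl7l1 and Rps19bp1 and to the 3 genes with fewer than 100 UMIs. The DEP 13 points stand above the others for Rps27, Rps29, Rps28, Rps27rt, Rpl39 and Rpl38.

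Most members were steady between animals. Among the 81 members with more than 10000 UMIs the coefficient of variation over the 4 mice had a median of 5.05% and was under 10% for 64 members. It exceeded 20% for 6 members, namely Rps27rt, Rpl38, Rps28, Rps29, Rpl39 and Rps27. All 6 were highest in DEP 13 and lowest in DEP 11, that is, at opposite ends within 1 exposure group. Among all 81 members 30 were highest in DEP 13, these 6 included. Others, such as Rpl41 and Rpl37, were likewise highest in DEP 13 and lowest in DEP 11. Rps29 of the small subunit measured 2198 CPM in DEP 11 and 4305 in DEP 13, against 3199 for PBS 2 and 2574 for PBS 3. Rpl38 of the large subunit measured 632, 1276, 890 and 701 in the same order. DEP 13 was therefore about 2.02 times DEP 11 for Rpl38 and 1.96 times for Rps29, while both PBS mice lay between. The 6 genes encode very short proteins. Their longest annotated coding length was 156 to 255 bases, against a median of 456 over the 81 members, and only 8 of the 81 had a coding length of at most 255 bases. The other two of these, Rpl41 and Rps21, varied by 13.4% and 13.1%. The part of coding length in this spread was not tested.

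Copies elsewhere in the genome took a further share of the signal. Among other gene models, 31 of them processed pseudogenes, 1 a transcribed one and 12 annotated as protein-coding, 44 matched a member transcript over at least 200 bases at 92% identity or more. Together they held 2.61% of all UMIs, or 14.04% of the UMIs of members and copies combined. At least 1000 UMIs fell on 27 of them, which belong to 23 members. Rpl23a-ps3 took between 47.2% and 48.6% of the UMIs that it shared with Rpl23a in the 4 mice, and Rpl10-ps3 took between 45.4% and 48.1% of those shared with Rpl10. Gm8730 held 36.6% to 42.3% of the pair with Rplp0, and Gm10073 held 28.1% to 36.0% of the pair with Rplp1. Levels of these members are therefore uncertain. In 27 of 27 pairs the copy had its highest share in DEP 13, the library that also stood apart for the short members.

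**Figure D2:**
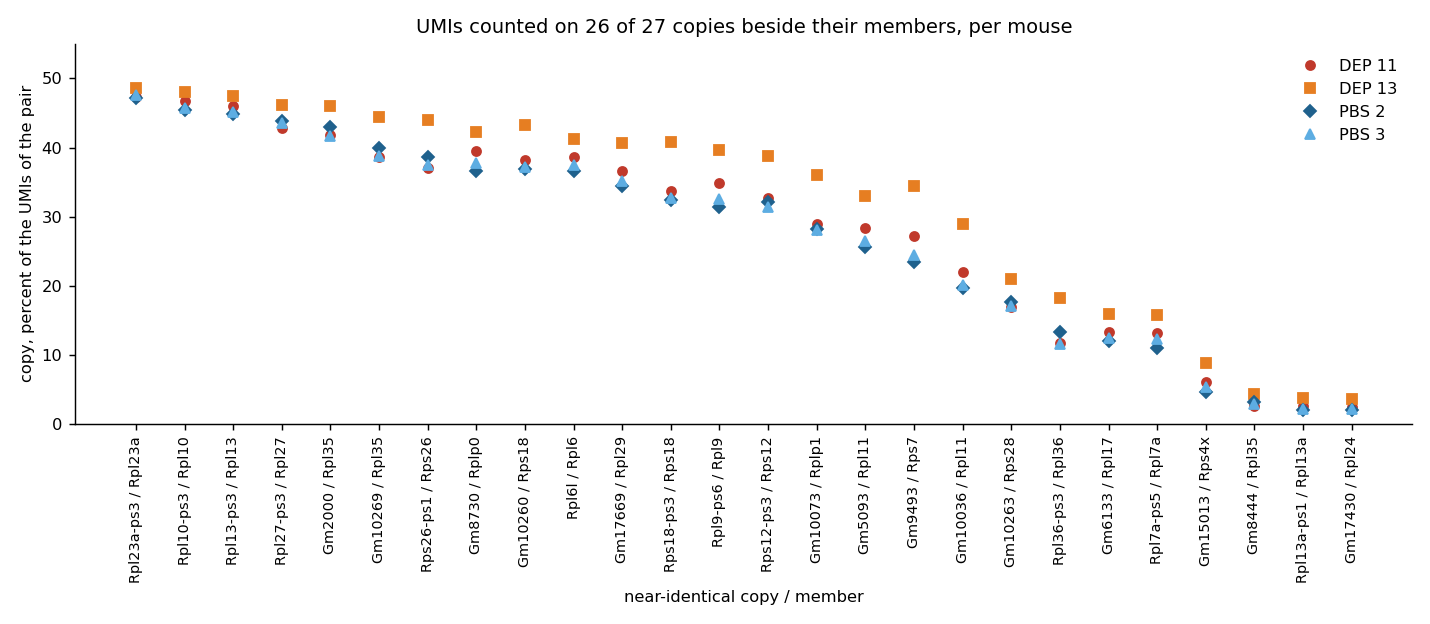
Percent of the UMIs of each pair that was counted on the copy, for 26 of the 27 copies with at least 1000 UMIs, by mouse. Shares range from nearly equal counts for Rpl23a-ps3 and Rpl10-ps3 down to a few percent, and the DEP 13 point is the highest in every pair.

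The next comparison asked how the members differ between monocyte-like and macrophage-like barcodes of the same mouse. A barcode was called Ly6c2-dominant if it had at least 2 Ly6c2 UMIs and more Ly6c2 than C1qa UMIs, and C1qa-dominant in the converse case. There were 104, 53, 81 and 92 Ly6c2-dominant barcodes in DEP 11, DEP 13, PBS 2 and PBS 3, and 1009, 558, 1162 and 1391 C1qa-dominant barcodes. The monocyte list, without Ly6c2, summed to 6966 ± 759 CPM in the first class and 1602 ± 174 in the second (SD, n = 4 mice). The macrophage list, without C1qa, summed to 12929 ± 2915 and 40482 ± 4073. Other lists moved with the class as well. The cycling list summed to 12.5 ± 3.89 CPM in Ly6c2-dominant and 78.6 ± 29.9 in C1qa-dominant barcodes, and the neutrophil list to 58.0 ± 10.6 and 30.8 ± 4.09, each in the same direction in 4 of 4 mice. Their part in the class differences was not tested. The plasma cell list varied between 4343 in PBS 2 and 78050 in DEP 13 in the Ly6c2-dominant class and between 9827 and 32043 in the other class.

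Most ribosomal protein genes were higher in Ly6c2-dominant barcodes, and a small set, below the share found over all genes, was lower. Of 83 members tested, 48 passed as higher and 7 as lower (edgeR quasi-likelihood test with the mouse as block, Benjamini-Hochberg adjusted p under 0.05 over 6697 genes), where 12.6% of all genes passed as higher and 11.2% as lower. The members' median log2 fold change was 0.18, beside -0.02 over all genes tested. Both subunits took part, with 21 of 34 Rps genes and 27 of 49 Rpl genes higher, and Rps genes made up 44.0% of member UMIs in Ly6c2-dominant and 43.9% in C1qa-dominant barcodes. Fewer cells of a type and less RNA per cell cannot be told apart in such sums, and the values are shares of each class's UMIs.

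The number of members called depended on the mouse block, the filter and thinning. Without the block 12 members passed as higher and 1 as lower, where 8.23% and 8.38% of all genes passed. With all genes that had a count tested, 25 members were higher and 8 lower, where 4.52% and 5.96% passed. With every barcode thinned to 1000 UMIs 8 of 82 members tested were higher and 4 lower, where 7.37% and 10.7% of 1968 genes passed, so that the count of higher members was near the background. The members' median was then 0.08, beside -0.05 over all genes. The lower ones were Rplp1, Rpl22l1, Rpl36a and Rps20. Thinning also redrew the classes, leaving 14 to 51 Ly6c2-dominant and 421 to 987 C1qa-dominant barcodes per mouse. Of the 55 members called above, Rpl7, Rpl26 and Rpl37a turned in sign, to -0.12, -0.04 and -0.0016, and none of them passed.

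The smallest p-value among members belonged to Rpl18, a large-subunit protein. It measured 2017, 1818, 1954 and 1837 CPM in the Ly6c2-dominant barcodes of DEP 11, DEP 13, PBS 2 and PBS 3, and 1473, 1251, 1405 and 1381 in their C1qa-dominant barcodes. The groups did not overlap, and edgeR put the log2 fold change at 0.50 ± 0.05 (SE, adjusted p = 3.23e-07). Rpl36al rose from 568 ± 47.9 to 813 ± 83.1 CPM (SD, n = 4 mice), which edgeR put at 0.54 ± 0.06 on the log2 scale (SE, adjusted p = 9.42e-07). Rpsa, the laminin receptor precursor of the small subunit, rose from 830 ± 57.8 to 1154 ± 132, which corresponds to 0.50 ± 0.06 on the log2 scale (SE, edgeR, adjusted p = 2.30e-06). Rps9, a small-subunit protein next to the mRNA entry channel, rose from 3508 ± 49.6 to 4357 ± 108, with a log2 fold change of 0.34.

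Rps27a, which is made as a fusion with ubiquitin, rose from 2746 ± 107 to 3452 ± 112 CPM (log2 fold change 0.36). Rpl34 rose from 2230 ± 109 to 2795 ± 74.1 (0.35). Rps14, the member with the most UMIs summed over all barcodes, rose from 4633 ± 356 to 5590 ± 249.3 (0.30). All 8 members with the smallest p-values were higher in 4 of 4 mice, the remaining one being Rplp0, described with the stalk. With the UMIs of the 44 copies added to their parent members, 50 members were higher and 7 lower, where 12.8% and 11.1% of all genes passed. This alternative was chosen after seeing the data. The share of a pair counted on its copy differed between the classes by at most 0.96 percentage points on average.

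**Figure D3:**
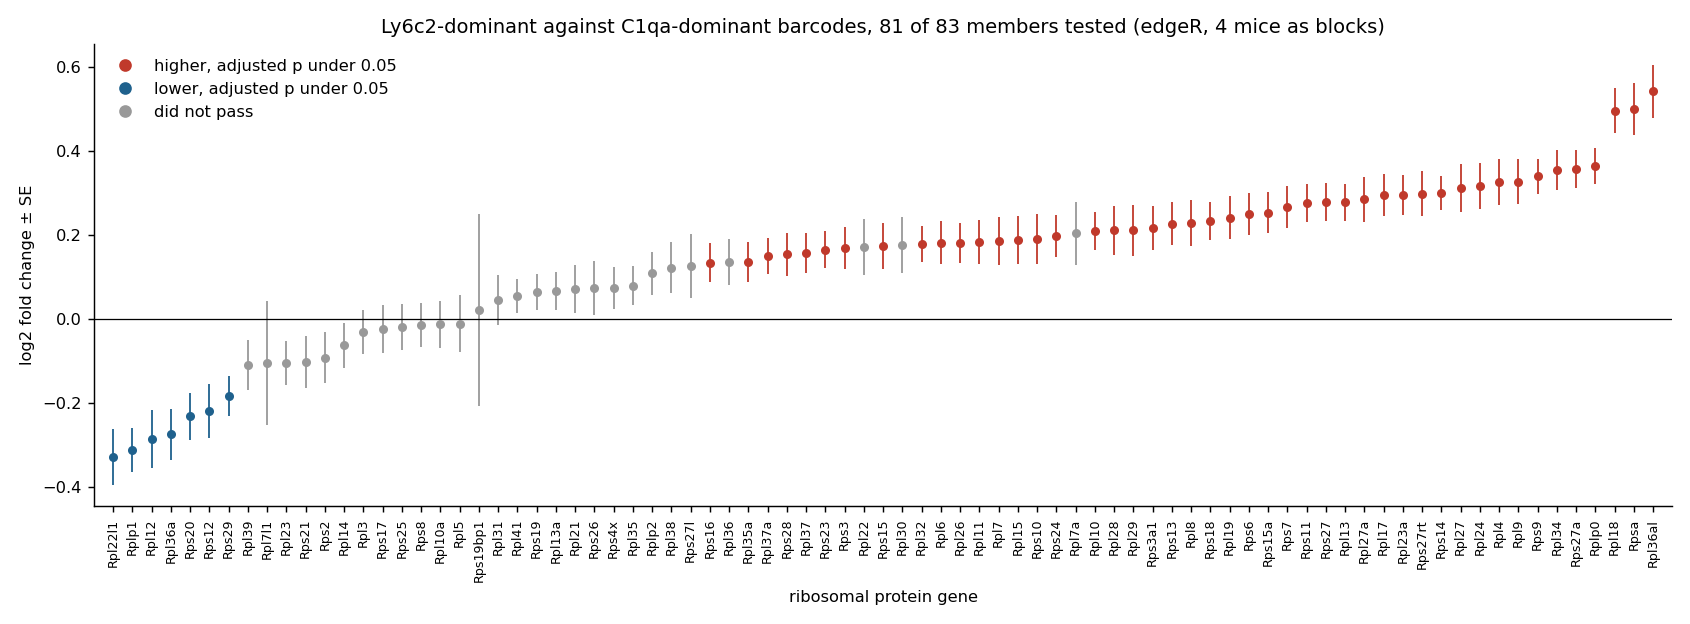
Log2 fold change (± SE) of 81 of the 83 members tested in Ly6c2-dominant against C1qa-dominant barcodes, with the 4 mice as blocks. Red points (46) passed as higher, blue points (7) passed as lower and grey points did not pass. Rpl36al, Rpsa and Rpl18 stand at the upper end, and Rpl22l1 and Rplp1 at the lower end.

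The 7 members that went the other way were Rplp1, Rpl22l1, Rpl36a, Rps20, Rpl12, Rps29 and Rps12, and each was lower in Ly6c2-dominant barcodes in 4 of 4 mice. Their count, 7 of 83 tested, lay below the 11.2% of all genes that passed as lower. Rplp1 measured 1586, 1644, 1672 and 1582 CPM in the Ly6c2-dominant barcodes of DEP 11, DEP 13, PBS 2 and PBS 3, and 2077, 2060, 2116 and 1953 in their C1qa-dominant barcodes. The groups did not overlap (log2 fold change -0.31 ± 0.05 SE, edgeR adjusted p = 0.000107). Rps20 had 1245 ± 71.7 CPM against 1489 ± 42.1 (log2 fold change -0.23) and Rpl12, the large-subunit protein at the stalk base, 422 ± 10.0 against 525 ± 20.3 (-0.29). For Rps12 the levels were 876 ± 99.2 and 1039 ± 69.3 (-0.22). For Rps29 they were 2657 ± 705 and 3098 ± 940 (-0.18), and the large SDs are those of the differences between libraries described above.

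Proteins that sit side by side in the ribosome did not all change in the same direction. The stalk is formed by Rplp0 with Rplp1 and Rplp2 attached. Rplp0 rose from 3036 ± 50.03 to 3838 ± 142 CPM (log2 fold change 0.36 ± 0.04 SE, edgeR adjusted p = 1.25e-06), Rplp1 fell, and Rplp2 had 2407 ± 226 against 2270 ± 118 and did not pass (0.11, edgeR adjusted p = 0.141). With their copies added, Rplp0 was at 0.39 and Rplp1 at -0.31. In readings described below Rplp2 did pass as higher. It was at 0.14 without lymphocyte-marker barcodes (edgeR adjusted p = 0.0183) and 0.22 between C1qa terciles (edgeR adjusted p = 0.00115).

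Paralog pairs were unequal as well. Rpl36a measured 972, 1164, 905 and 1013 CPM in the Ly6c2-dominant barcodes of DEP 11, DEP 13, PBS 2 and PBS 3, and 1158, 1340, 1198 and 1288 in their C1qa-dominant barcodes. It was lower in each mouse although the highest value of the first class exceeded the lowest of the second, and it fell by 0.27 on the log2 scale (edgeR adjusted p = 0.00173), while Rpl36al, which can take its place in the ribosome, rose. Rpl22l1 fell from 587 ± 62.5 to 458 ± 41.7 (log2 fold change -0.33 ± 0.07 SE, edgeR adjusted p = 0.000748), while Rpl22 had 760 ± 13.4 and 840 ± 68.2 and did not pass (0.17, edgeR adjusted p = 0.0709). In readings described below Rpl22 did pass as higher. It was at 0.19 without lymphocyte-marker barcodes (edgeR adjusted p = 0.0201) and 0.30 between C1qa terciles (edgeR adjusted p = 0.000502). The difference of the changes within a pair was not tested.

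Among the other paralogs, Rps27 rose by 0.28 and its identical copy gene Rps27rt by 0.30 on the log2 scale, while Rps27l did not pass (0.13, edgeR adjusted p = 0.271). Between the C1qa terciles described below Rps27l passed at 0.33 (edgeR adjusted p = 0.000194). Without lymphocyte-marker barcodes it was at 0.07 and did not pass. Rpl10 was higher (0.21, edgeR adjusted p = 0.00137), as was Rpl7 (0.18, edgeR adjusted p = 0.0201), which was at -0.12 in thinned barcodes. Rpl3, Rpl39, Rpl41, Rps4x, Rpl7l1 and Rps19bp1 did not pass, with log2 fold changes between -0.11 and 0.07. These values include Rpl41, the smallest ribosomal protein, at 0.05 with a standard error of 0.04. Between the terciles Rpl41 and Rps4x passed as higher, at 0.21 and 0.15.

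A second reading divided the barcodes of each mouse that had a C1qa UMI into terciles of the C1qa share of their UMIs, also chosen after seeing the data. From the lowest to the highest tercile, the member share of UMIs declined in every mouse. For DEP 11 it went from 17.8% to 13.6% and for DEP 13 from 18.5% to 15.1%, while for PBS 2 it went from 17.0% to 14.04% and for PBS 3 from 17.1% to 14.6%. The middle tercile lay between the others in every mouse. The 117 barcodes without a C1qa UMI had 19.1%, 20.7% and 19.9% in DEP 11, DEP 13 and PBS 3, above the lowest tercile, but the 12 of PBS 2 had 13.0004%, below all its terciles. Those 12 were shallow, with a median of 1305.5 UMIs. Their median mitochondrial share was 9.48%, against 1.68% to 2.51% for such barcodes of the other mice. Against the highest tercile, 68 members were higher and 4 lower in the lowest tercile, where 22.2% and 21.7% of all genes passed. Of the 55 members that passed between the classes, 52 also passed here and all 52 had the same direction, 48 of them higher and 4 lower. The 4 lower in both were Rpl22l1, Rplp1, Rps20 and Rps29, whereas Rpl36a, Rpl12 and Rps12 were at -0.10, -0.12 and -0.10 and did not pass. The barcodes of the classes are part of those in the terciles, so that this is no independent comparison.

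Depth moved with C1qa level. The median UMI count per barcode was 4502 to 5904 in the lowest and 6980 to 9025 in the highest tercile of the 4 mice. The median number of member UMIs per barcode was 840 to 1020 in the lowest and 934 to 1259 in the highest, so that the lower share did not go with fewer member UMIs. Among barcodes of 5000 to under 10000 UMIs the member share was 19.1% ± 1.22 in the lowest and 14.3% ± 0.60 in the highest tercile (SD, n = 4 mice), with 660 and 873 barcodes. Among those of 2500 to under 5000 UMIs it was 19.0% ± 1.01 and 13.9% ± 1.01. At 10000 UMIs or more the order was the opposite, with 11.8% ± 1.60 in the lowest tercile (80 barcodes) and 14.5% ± 0.74 in the highest.

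By Ly6c2 the reading depended on the summary. The median share per barcode was higher at 4 or more Ly6c2 UMIs than at 0 in each mouse, at 18.2% against 15.9% for DEP 11, 19.4% against 17.0% for DEP 13, 17.6% against 15.3% for PBS 2 and 18.6% against 16.2% for PBS 3. The share of pooled UMIs, in which deep barcodes weigh more, was higher at 4 or more only for PBS 2.

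**Figure D4:**
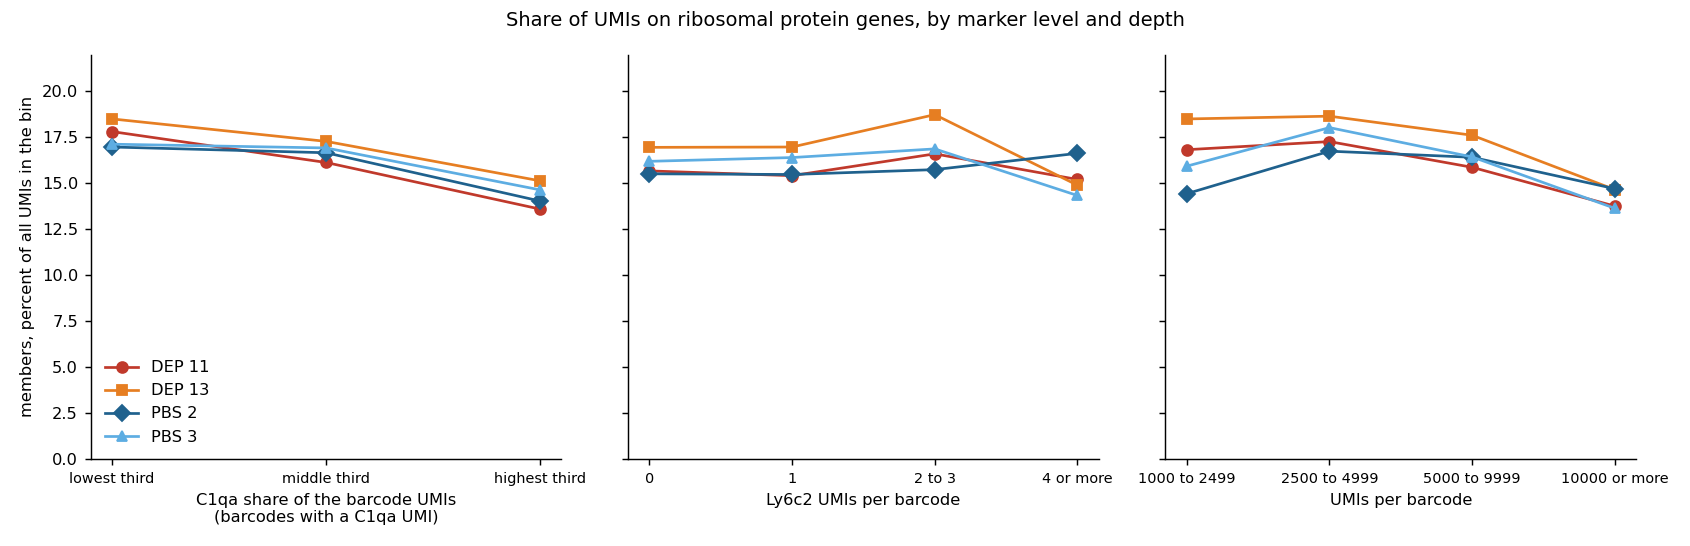
Percent of UMIs on members by tercile of C1qa share (left), by Ly6c2 UMIs per barcode (middle) and by depth (right), 1 line per mouse. All 4 mice decline from the lowest to the highest C1qa tercile, while with Ly6c2 the pooled share has no common slope, with a mean of 16.1% at 0 UMIs and 15.3% at 4 or more.

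Barcodes with plasma cell genes were deep and had a low member share, and their part in the order at 10000 UMIs or more was not tested. There were 269 barcodes with at least 3 UMIs summed over Cd3d, Cd3e, Cd3g, Cd79a, Cd79b, Ms4a1, Mzb1 and Derl3, or 4.27% to 6.95% of each mouse. In 91 of them the plasma cell genes Mzb1 and Derl3 led, and these had a median of 19711 UMIs and a median member share of 9.47%. The 52 led by the Cd3 genes had 18.7% and the 126 led by B cell genes 17.995%, while the 4502 other barcodes had 16.6%. Of the barcodes led by Mzb1 and Derl3, 13 were Ly6c2-dominant and 77 C1qa-dominant. In the Ly6c2-dominant class 2 to 7 marker-positive barcodes per mouse supplied 6.61% to 18.5% of the UMIs.

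The member share was 17.2%, 18.1%, 17.6% and 17.0% in the Ly6c2-dominant barcodes of DEP 11, DEP 13, PBS 2 and PBS 3, and 15.4%, 16.6%, 15.6% and 16.0% in their C1qa-dominant barcodes. It was higher in the first class in 4 of 4 mice, by 1.62 ± 0.43 percentage points (SD of the within-mouse differences; exact two-sided sign-flip permutation p = 0.13, the smallest that 4 mice allow). Without the 269 marker-positive barcodes the shares were 18.9% ± 0.89 and 16.2% ± 0.67, a difference of 2.66 percentage points. In the same set 53 members were higher and 7 lower, where 13.1% and 12.2% of all genes passed. The 48 higher and 7 lower members were all called again in the same direction. These barcodes are part of those compared before, so that this is no independent comparison.

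**Figure D5:**
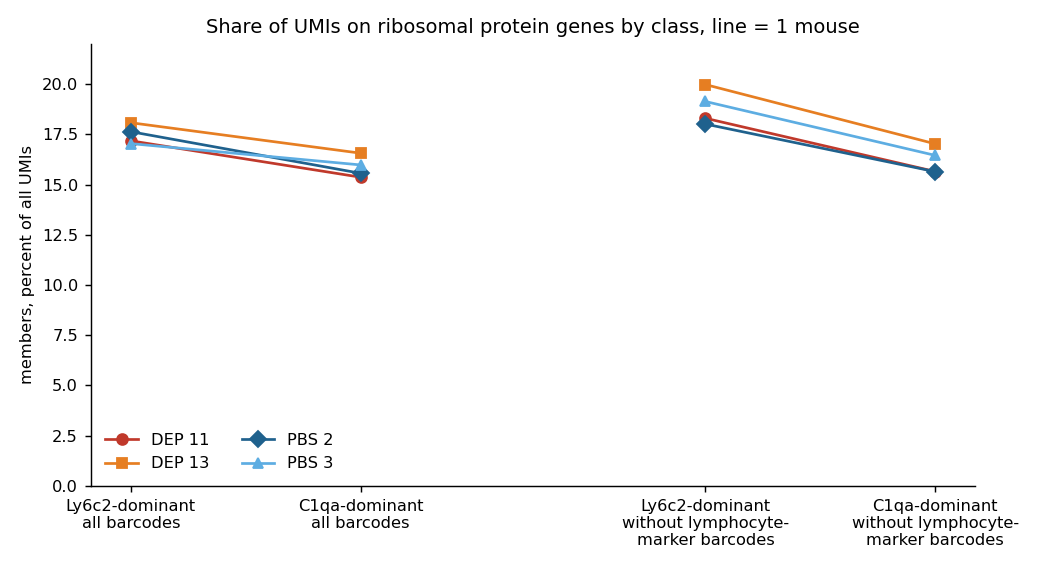
Percent of UMIs on members in Ly6c2-dominant and C1qa-dominant barcodes, 1 line per mouse, for all barcodes and without the 269 barcodes that carry lymphocyte markers. Every line declines from left to right, more steeply without those barcodes.

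Other parts of the translation machinery were set beside the members. Of 20 elongation factors and further genes whose mRNAs carry the same pyrimidine tract or serve initiation, 12 were higher and 0 lower in Ly6c2-dominant barcodes, with a median log2 fold change of 0.25. Over all genes tested 12.6% were higher and 11.2% lower. Eif3f was at 0.68, Eif3e at 0.57, Eif3h at 0.44 and Eif3k at 0.42, all subunits of initiation factor 3, and Fau, whose product includes a small-subunit protein, was at 0.31. Among 74 mitochondrial ribosomal protein genes tested, 3 were higher and 1 lower with a median of 0.02, led by Mrpl33 at 1.20 and Mrpl30 at 0.65. Of 21 ribosome biogenesis genes tested, Polr1d was higher at 0.31, and Ncl, encoding nucleolin, and Myc were lower at -0.36 and -2.54, with a median of -0.10.

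Exposure to DEP was compared next. No member passed in all barcodes, in Ly6c2-dominant barcodes or in C1qa-dominant barcodes, and 0% of the 6609, 5746 and 6751 genes tested passed (edgeR quasi-likelihood test). At an unadjusted p under 0.05 there were 171, 216 and 203 genes, with 0 members among them in each comparison, and DESeq2 called 4, 0 and 5 genes and 0 members. With all genes that had a count tested, 119, 34 and 124 genes passed, and 0 members. In simulated counts for all barcodes, 2 of 200 genes changed by 0.5 on the log2 scale were called, and 159 of 200 changed by 1. Absence of calls therefore does not exclude changes as small as those listed below. The members' median log2 fold change of DEP against PBS was 0.04, 0.05 and 0.03, beside -0.01 over all genes in each.

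The direction of the median depended on the libraries and their scaling. In all barcodes the fitted value was positive for 63 of 83 members. The refitted median was 0.08 without DEP 11, -0.02 without DEP 13, -0.02 without PBS 2 and 0.12 without PBS 3. Taken from mean CPM without TMM scaling, an alternative chosen after seeing the data, the median was 0.03 with all mice and 0.02 to 0.06 without 1 mouse. The member share of UMIs was 15.7% and 16.9% in DEP 11 and DEP 13, and 15.7% and 16.1% in PBS 2 and PBS 3. The groups overlapped, and the difference of 0.37 percentage points had an exact two-sided permutation p = 1, where 2 mice against 2 cannot go below 0.33. DEP 13 stood highest, and without it the difference was -0.23.

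Members with the smallest p-values failed the correction. Rpl15 measured 1155 and 1196 CPM in DEP 11 and DEP 13, and 929 and 1037 in PBS 2 and PBS 3, which did not overlap (log2 fold change 0.26 ± 0.16 SE, edgeR adjusted p = 0.997). Rpl21, Rpl17 and Rps26 were at 0.22, 0.19 and 0.17. Leaving out 1 mouse, Rpl15 ranged from 0.13 to 0.40, Rpl21 from 0.08 to 0.34, Rpl17 from 0.06 to 0.32 and Rps26 from 0.05 to 0.28. On the other side Rpl7l1, Rps27l, Rps14 and Rps19 were at -0.24, -0.15, -0.12 and -0.08. Rpl7l1 ranged from -0.40 to -0.06 when 1 mouse was left out. Refitted without PBS 3, Rps27l, Rps14 and Rps19 were at 0.05, 0.03 and 0.06, although their mean CPM in the DEP mice stayed below that of PBS 2, so that the sign of these small values depended on the scaling. Rps14 had 4560 and 4544 CPM after DEP, and 4657 in PBS 2 beside 5221 in PBS 3, so that PBS 3 stood apart.

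The classes were also taken separately. In Ly6c2-dominant barcodes Rpl7a, Rpl21, Rpl38 and Rpl15 had log2 fold changes of 0.31, 0.30, 0.28 and 0.26, and Rpl7l1 and Rpsa of -0.34 and -0.11. Rpl38 was at -0.33 without DEP 13. In C1qa-dominant barcodes Rpl39, Rpl15, Rpl21 and Rps26 had 0.29, 0.24, 0.20 and 0.17, and Rpl7l1, Rps27l, Rps14 and Rps19 had -0.24, -0.18, -0.15 and -0.10. Rpl39 was at -0.25 without DEP 13. Leaving out 1 mouse, Rps27l ranged from -0.35 to 0.02, Rps19 from -0.22 to 0.05 and Rps14 from -0.27 to -0.0055. None of these passed (edgeR adjusted p = 1 for each after rounding). Both classes come from the same mice, and the comparison over all barcodes includes the barcodes of both.

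An interaction term asked whether the DEP effect depended on the class. No member passed and 0% of 6697 genes did (edgeR; 293 genes and 0 members at an unadjusted p under 0.05, DESeq2 0 genes), and the members' median was -0.0027, or 0.0076 when scaled by total counts. Among the smallest p-values were those of Rps27l, Rps14, Rpl36a and Rps27, at 0.24, 0.10, 0.14 and 0.09, and of Rpsa, Rpl30 and Rps10, at -0.15, -0.15 and -0.13, none of which passed.

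Promoters were looked at because so many members moved together. RefSeq start-site windows (GRCm38.p6, 250 bases before to 50 after the start) were found for 66 members. The letters CCGGAAG, on either strand, occurred in 39.4% of these and in 9.93% of the windows of all 27025 genes, CTTTCC in 54.5% and 29.3%, and TATAAA in 10.6% and 15.7%. None of the searched words contains another. Of the members higher in Ly6c2-dominant barcodes, 37 had a window, of which 37.8% held CCGGAAG, 48.6% CTTTCC and 5.41% TATAAA. Of the lower members 4 had a window, and CCGGAAG occurred in 0, CTTTCC in 1 and TATAAA in 2 of these. Between the classes Rpl22l1 passed as lower and Rpl22 did not pass, whereas between C1qa terciles Rpl22 passed as higher. The 100 bases before the annotated start are shown for these paralogs, Rpl22 (chr4:152325626-152325725, plus strand) and Rpl22l1 (chr3:28805408-28805507, plus strand), with a searched word in capitals:
Rpl22: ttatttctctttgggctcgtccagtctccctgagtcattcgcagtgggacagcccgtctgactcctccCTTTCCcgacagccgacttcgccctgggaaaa
Rpl22l1: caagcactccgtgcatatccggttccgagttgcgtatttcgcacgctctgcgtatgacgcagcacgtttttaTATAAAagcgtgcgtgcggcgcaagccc

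The windows differ in the words they hold, CTTTCC for Rpl22 and TATAAA for Rpl22l1. Such matches describe the letters alone.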

How the data were processed

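Single-cell RNA-seq of sorted colon monocytes and macrophages was available as 1 table of UMI counts, 28692 genes by 6954 barcodes, from 4 mice. The authors deposited raw UMI counts; the submitters' processing notes name Cell Ranger, STAR 2.6.1a, R 3.5.1 and mm10, and the annotation and the filter on barcodes were not given in the sources used here. Gene IDs were matched to GENCODE M21, which named 28339 of them.

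Barcodes with at least 1000 UMIs were kept, and doublets were not called. Counts were summed per mouse, or per mouse and class, so that the mouse was the replicate. Genes over 1 CPM in at least 2 sums and detected in at least 5% of barcodes were tested with edgeR 4.0.16 (TMM, quasi-likelihood F test, adjusted p under 0.05 by Benjamini-Hochberg over all genes tested) in R 4.3.3. Both classes come from the same animal, so the mouse paired them as a block. Standard errors were derived from the F values. DESeq2 1.42.0 was an alternative. The scripts were tested on simulated data. Copies were found with blastn 2.17.0 on GENCODE transcripts, and the marker, translation and biogenesis lists were described by counts and medians.

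The members and lists were chosen with earlier results of these data known. Named members were the stalk genes and Rpsa, the paralog pairs, Rps27a, Rpl41 and symbols that are no subunit, the 5 highest and 5 lowest by level, and for each comparison the 8 lowest p-values in each direction among members that passed, or 4 where none did. Rps28 and other members named for their spread or copies were chosen after their values were seen. Intervals between mice cover the spread of the 4 animals only. Some genes are not reported here by name or in the plots, but remain in all counts, medians and shares.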

Additional observations from a re-analysis of the deposited data

Results flagged for a closer look

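The 2183 barcodes with fewer than 1000 UMIs enter no comparison, and members were detected in them in every library. The share of UMIs on members there was 8.02% for DEP 11 and 8.30% for DEP 13, and 8.20% for PBS 2 and 8.47% for PBS 3. Under 500 UMIs the share was 6.00% to 7.03%, with a median mitochondrial share per barcode between 19.9% and 23.7%.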

How the results depend on the processing

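Counts of members called between Ly6c2-dominant and C1qa-dominant barcodes (55) were within 1.5 times under all alternatives except when all genes with a count were tested (33 of 86, where 4.52% of all genes passed as higher and 5.96% as lower), when barcodes were thinned to 1000 UMIs (12 of 82, in redrawn classes, where 7.37% and 10.7% passed; the cause was not tested) and without the replicate block (13 of 83, where 8.23% and 8.38% passed); leaving out 1 mouse gave 43 to 54. The DEP comparisons and the interaction kept 0 members in every alternative, with 0 without each mouse in turn. The share difference between the classes, 1.62 percentage points, became 2.08 as a mean share per barcode, 2.66 without lymphocyte-marker barcodes, 2.73 in thinned barcodes and 3.25 between C1qa terciles, and 1.46 to 1.80 without 1 mouse. The share difference between DEP and PBS, 0.37 percentage points, changed sign without DEP 13, ranging from -0.23 to 0.98 without 1 mouse, and was 0.65 as a mean share per barcode, 0.61 thinned and 0.80 with copies added. Rpl7, 0.18 between the classes, was at -0.12 in thinned barcodes; the cause was not tested.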
